A study of Mus musculus with 24 samples.

Results

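The transcripts of 8 genes of gluconeogenesis and hepatic glucose output (*Gpt*, *Pcx*, *Pck1*, *Pck2*, *Fbp1*, *Slc37a4*, *G6pc* and *Slc2a2*) were examined in bulk RNA-seq libraries. They were taken by gene symbol from a table of 24532 genes, and all 8 were found. The libraries came from liver, inguinal white adipose tissue (iWAT), gastrocnemius muscle (GM) and hypothalamus of chow-fed C57BL/6 mice at 8 weeks of age. The Ctrl mice carried Crif1flox/flox alone, and the liver-specific knockout mice (LKO) carried Alb-Cre and Crif1flox/flox, so that the floxed allele was shared and Cre was present in LKO alone. The albumin promoter drives Cre in hepatocytes, so other cells of the liver were not targeted. Each tissue and genotype had 3 libraries, which makes 24 in all. The labels do not say whether tissues came from the same mice, so p-values measure the spread between these libraries, part of which may be technical.

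Gluconeogenesis makes glucose from lactate, alanine, glycerol and other non-sugar carbon, and liver is its main site in fasting. Alanine is turned into pyruvate by alanine transaminase (Gpt, ALT1), pyruvate carboxylase (Pcx) makes oxaloacetate in mitochondria, and phosphoenolpyruvate carboxykinase (PEPCK) turns oxaloacetate into phosphoenolpyruvate, in the cytosol by Pck1 and in mitochondria by Pck2. Fructose-1,6-bisphosphatase (Fbp1) reverses the phosphofructokinase step. The transporter Slc37a4 carries glucose-6-phosphate into the endoplasmic reticulum, where the catalytic subunit G6pc frees glucose, and Slc2a2 (GLUT2) carries glucose across the hepatocyte plasma membrane.

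Expression is given as FPKM, a count of sequenced fragments corrected for transcript length and library depth, so levels of different genes can be set side by side. Aligned bases, inferred from mean coverage and FPKM, were 4.45 to 8.09 Gb per library (median 5.19). The targeted gene, *Crif1*, is listed as *Gadd45gip1* (chr8:84832282-84835482, mm10). Its FPKM in liver was 14.6, 12.5 and 13.6 in Ctrl and 5.40, 2.002 and 2.51 in LKO, so the library LKO 1 kept the highest level of the knockout group. The log2 fold change was -1.84 ± 0.27 (SE, adjusted p = 0.003566, limma), and in the other 3 tissues the genotypes overlapped. The 7 hepatocyte markers in the table summed to 53630 to 56710 FPKM in Ctrl liver and 41290 to 66930 in LKO liver. Most of these sums was *Alb*, at 39760 to 42770 FPKM in Ctrl and 33130 to 53190 in LKO. Of the 7, 1 fell at an adjusted p under 0.05 and 2 at an unadjusted p under 0.05 in limma. Their median log2 fold change was -0.15, beside 0.33 over all genes tested.

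The 4 members on which the liver results turn are introduced here by the 250 bases before their annotated starts, since these windows are where hormone and stress responsive elements of such genes have been studied. The sequences are RefSeq's on GRCm38.p6, the assembly also called mm10, written 5′ to 3′ on the gene's own plus strand. Windows were present for 7 of the 8 members, without *Gpt*. The listed start used for *Slc37a4* lies downstream of the gene start in the deposited files (44396927), so the end of its window is inside the gene as printed further on. Capitals mark matches on either strand to ACGTCA, the core of the cAMP response element, or to TGATGNAA, a form of the composite site for C/EBP and ATF factors. These letters were chosen after the values were known. A match is a description of the letters alone.
*Pck1*, chr2:173152823-173153072, plus strand: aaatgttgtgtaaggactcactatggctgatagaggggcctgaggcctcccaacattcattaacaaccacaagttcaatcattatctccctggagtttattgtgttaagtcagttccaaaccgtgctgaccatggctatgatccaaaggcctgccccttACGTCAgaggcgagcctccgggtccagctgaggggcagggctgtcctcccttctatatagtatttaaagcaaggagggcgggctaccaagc
*Pck2*, chr14:55540016-55540265, plus strand: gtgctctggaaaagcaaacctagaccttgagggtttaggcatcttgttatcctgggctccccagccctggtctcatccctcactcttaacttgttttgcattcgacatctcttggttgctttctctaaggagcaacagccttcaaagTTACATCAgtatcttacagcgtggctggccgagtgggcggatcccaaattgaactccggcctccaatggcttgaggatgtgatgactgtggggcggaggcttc
*G6pc*, chr11:101367466-101367715, plus strand: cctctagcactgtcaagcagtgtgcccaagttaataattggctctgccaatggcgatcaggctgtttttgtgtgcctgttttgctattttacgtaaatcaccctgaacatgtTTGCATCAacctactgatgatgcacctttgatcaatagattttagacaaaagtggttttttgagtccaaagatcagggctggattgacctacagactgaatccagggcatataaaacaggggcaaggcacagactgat
*Slc37a4*, chr9:44396696-44396945, plus strand, the first of 3 listed starts: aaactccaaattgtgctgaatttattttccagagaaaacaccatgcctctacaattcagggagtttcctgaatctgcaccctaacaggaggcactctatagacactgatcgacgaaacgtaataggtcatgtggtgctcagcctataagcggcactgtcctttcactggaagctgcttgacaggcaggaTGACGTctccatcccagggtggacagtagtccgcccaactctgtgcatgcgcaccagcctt

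*Pck1* had ACGTCA at positions -91 to -86 from the start, and *Slc37a4* had its reverse complement at -61 to -56. *Pck2* and *G6pc* had no ACGTCA but each had 1 match to TGATGNAA on the minus strand, at -103 to -96 and at -138 to -131. Over all 32851 promoter windows of this length, 6.47% held ACGTCA and 3.45% held TGATGNAA. The 2 kinds of match did not overlap in any of the 4 windows. GC content was 50.8% for *Pck1*, 51.6% for *Pck2*, 43.2% for *G6pc* and 49.6% for *Slc37a4*.

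In the livers of LKO mice the mitochondrial PEPCK transcript *Pck2* rose, the 2 transcripts of the glucose-6-phosphatase system, *G6pc* and *Slc37a4*, fell, and the other 5 members did not pass the test. All 8 members had at least 1 FPKM in 3 libraries, and calls were made by limma on log2(FPKM + 1) with Benjamini-Hochberg adjustment over 10956 liver genes. Across those genes 43.8% passed, 38.3% higher and 5.49% lower in LKO. The members thus had 3 of 8 called, a share close to the background, but 2 of the 3 were in the direction that 5.49% of genes took. The members' log2 fold changes had a median of -0.08, beside 0.33 over all genes tested.

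**Figure D1:**
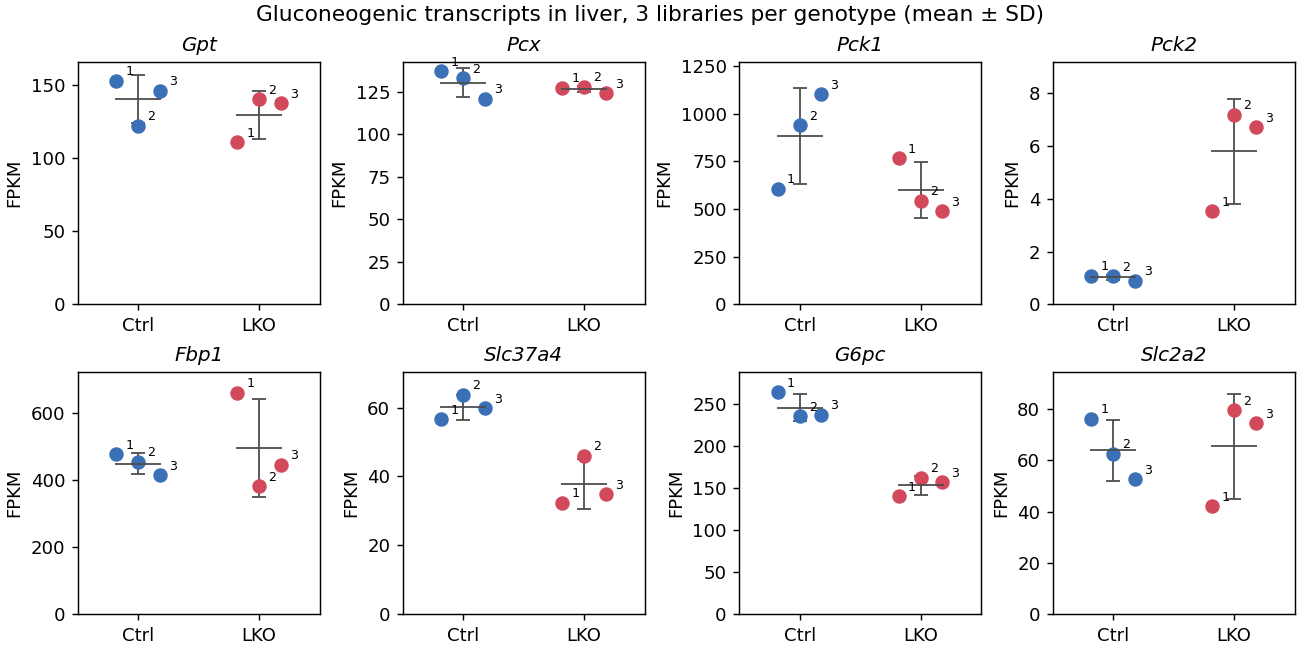
FPKM of each member (y axis, from 0) in the 3 Ctrl and 3 LKO liver libraries, with replicate numbers beside the points and mean ± SD as bars. The genotypes do not overlap for *Pck2*, *Slc37a4* and *G6pc*, and LKO 1 lies apart from LKO 2 and LKO 3 for *Pck2*, *Fbp1* and *Slc2a2*.

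Transcript of the alanine-entry enzyme *Gpt* (chr15:76696726-76699675) had FPKM of 153, 122 and 146 in Ctrl liver and 111, 140 and 137 in LKO liver. The genotypes overlapped, and the log2 fold change was -0.12 ± 0.14 (SE, adjusted p = 0.5008, limma). *Gpt2*, the mitochondrial alanine transaminase, was measured at 57.5, 56.7 and 67.9 FPKM in Ctrl and 70.7, 115 and 122 in LKO, and it rose by 0.71 ± 0.21 on the log2 scale (SE, adjusted p = 0.0324, limma). This call was made in 7 of 16 settings and was lost without any 1 library other than LKO 1 (adjusted p at most 0.1148 in these limma fits). The log2 ratio of *Gpt* to *Gpt2* within a library was 1.40, 1.09 and 1.09 in Ctrl and 0.64, 0.29 and 0.17 in LKO. Every LKO library therefore lay below every Ctrl library in this ratio, which was not tested.

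*Pcx* (chr19:4510472-4621752), at the pyruvate carboxylase step, had FPKM of 137, 133 and 121 in Ctrl liver and 127, 128 and 124 in LKO liver. It was the steadiest member across LKO livers, with a coefficient of variation of 1.57%. The log2 fold change was -0.04 ± 0.10 (SE, adjusted p = 0.7322, limma). The span of *Lrfn4*, on the opposite strand, overlaps that of *Pcx* by 3884 bases. Whether their exons overlap was not examined.

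Between the 2 PEPCK transcripts, the cytosolic *Pck1* (chr2:173153073-173159253) was the far more abundant one in liver. Its FPKM was 605, 939 and 1100 in Ctrl and 767, 544 and 490 in LKO. The lowest Ctrl library and the highest LKO library, both numbered 1, crossed, and the log2 fold change of -0.54 ± 0.26 did not pass (SE, adjusted p = 0.1251, limma). Without LKO 1 it was -0.73, and it then passed (adjusted p = 0.02227, limma), which made 4 members called of 8 in a fit where 67.4% of all genes were called.

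*Pck2* (chr14:55540266-55550017) had FPKM of 1.09, 1.08 and 0.890 in Ctrl liver and 3.52, 7.19 and 6.71 in LKO liver. Every LKO library exceeded every Ctrl library, LKO 1 by the least. The log2 fold change was 1.71 ± 0.23 (SE, adjusted p = 0.002536, limma), a 3.26-fold difference on the FPKM + 1 scale, which understates low levels. As a plain ratio of mean FPKM it was 5.70. *Pck2* stood at percentile 98.1 of the fold changes of all tested liver genes.

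The balance of the 2 enzymes was taken within each library as log2((Pck1 + 1)/(Pck2 + 1)). In Ctrl liver it was 8.18, 8.82 and 9.19, and in LKO liver it was 7.41, 6.06 and 5.99. The mean fell by 2.24, a 4.74-fold shift, without overlap between genotypes (exact two-sided permutation p = 0.1, the smallest that 3 against 3 allows). Without LKO 1 the mean fell by 2.71. Without the added 1, where scaling between libraries cancels, it fell by 2.99. *Pck2* made up 0.0809% to 0.180% of the FPKM of both genes in Ctrl liver and 0.456%, 1.305% and 1.35% in LKO liver, so *Pck1* was still at least 73.0 times as abundant in each LKO library.

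**Figure D2:**
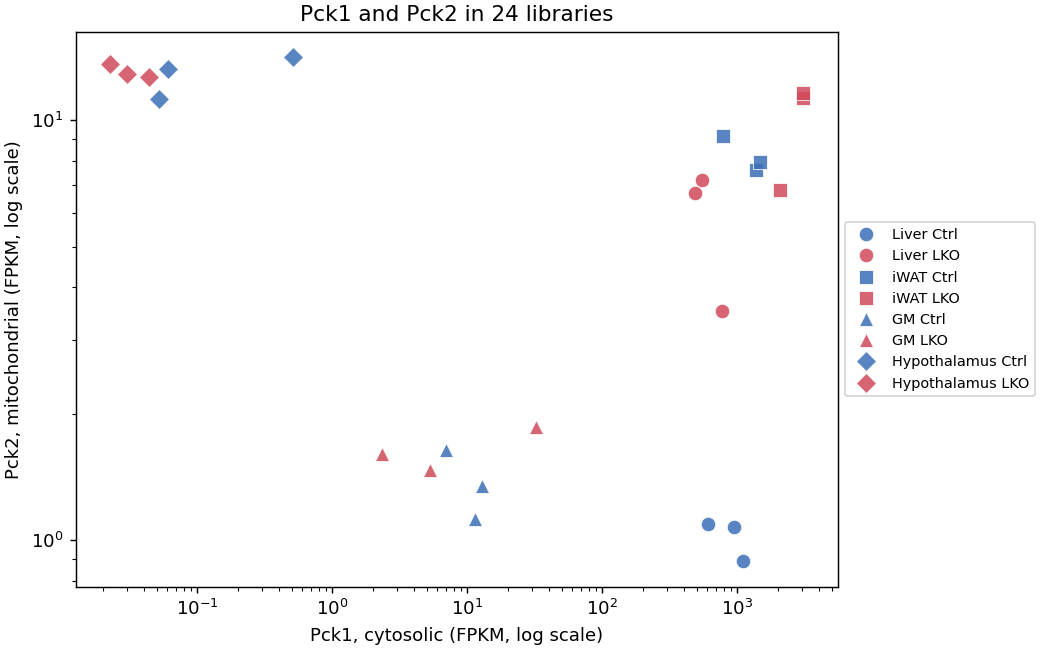
FPKM of *Pck1* (x axis) against FPKM of *Pck2* (y axis), both on log scales, with 1 point per library, shape for tissue and colour for genotype. Ctrl livers lie at the lower right with *Pck2* at or under 1.09 FPKM, LKO livers lie above them at 3.52 to 7.19, and hypothalamus lies at the upper left.

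*Fbp1* (chr13:62864753-62888282, minus strand) was at 478, 456 and 415 FPKM in Ctrl liver and 662, 381 and 446 FPKM in LKO liver. LKO 1 was above, and LKO 2 below, all Ctrl libraries. The log2 fold change was 0.10 ± 0.21 (SE, adjusted p = 0.6831, limma), and without LKO 1 it was -0.12. Its paralogue *Fbp2*, the muscle form, reached at most 0.571 FPKM in any liver library and was not tested.

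Both parts of the glucose-6-phosphatase system had lower transcript levels. *G6pc* (chr11:101367716-101377903) was at 263, 235 and 237 FPKM in Ctrl liver and 140, 162 and 157 FPKM in LKO liver. All LKO libraries lay below all Ctrl libraries, with LKO 1 the lowest. It fell by 0.68 ± 0.11 on the log2 scale (SE, adjusted p = 0.004886, limma), or 1.60-fold. *Slc37a4* (chr9:44396927-44402968) was at 56.7, 63.8 and 59.8 FPKM in Ctrl liver and 32.4, 46.0 and 34.9 FPKM in LKO liver, again without overlap. It fell by 0.67 ± 0.15 (SE, adjusted p = 0.01254, limma), or 1.59-fold. The call on *Slc37a4* was lost without Ctrl 2 (adjusted p = 0.05703) and without Ctrl 3 (adjusted p = 0.05155) in the same limma fit. The log2 ratio of *G6pc* to *Slc37a4* within a library averaged 2.010 ± 0.17 in Ctrl and 2.001 ± 0.18 in LKO liver (SD, n = 3), so the 2 transcripts kept their proportion within the spread.

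Among the members, groups without overlap were thus *Pck2* on the higher side and *G6pc* and *Slc37a4* on the lower side, where 53% and 8.1% of all tested liver genes had no overlap (61.1% in all). The same 3 members, and 55.9% of genes, had an unadjusted p under 0.05. *G6pc* and *Slc37a4* stood at percentiles 3.31 and 3.36 of all fold changes, next to *Pck1* at 4.47.

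*Slc2a2* (chr3:28697903-28728360) was at 76.4, 62.7 and 52.7 FPKM in Ctrl liver and 42.1, 79.8 and 74.7 FPKM in LKO liver. LKO 1 was the lowest of the 6 libraries and LKO 2 the highest. The log2 fold change was -0.0024 ± 0.26 (SE, adjusted p = 0.9943, limma), and without LKO 1 it was 0.28. *Slc2a1* (GLUT1), the glucose transporter of many other cell types, was at 4.92, 4.08 and 5.01 FPKM in Ctrl and 6.23, 7.93 and 20.4 FPKM in LKO liver. The genotypes did not overlap, LKO 3 lay far above the other LKO libraries, and the change of 0.98 ± 0.37 did not pass (SE, adjusted p = 0.06578, limma). It was called in 5 of 16 settings, with adjusted p from 0.0034 to 0.1879 in limma.

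How libraries were scaled bore on every fold change in liver, because 87.5% of calls were higher in LKO as deposited and 45% after median-ratio scaling. Under that scaling the median over all genes moved from 0.33 to -0.05. Relative to the deposited median, *Pck2* was higher by 1.38, while *G6pc* stood at -1.01 and *Pck1* at -0.87. After median-ratio scaling 5 members were called instead of 3, in a fit where 32.8% of genes were called, 14.8% higher and 18% lower. *Pck2* then rose by 1.40, and *G6pc* (-1.12), *Slc37a4* (-1.10), *Gpt* (-0.56, adjusted p = 0.01511) and *Pcx* (-0.48, adjusted p = 0.03371) were lower in limma.

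Markers of non-hepatocyte cells moved with genotype in the same livers. All 6 Kupffer cell markers were higher in LKO and summed to 97.7 to 101 FPKM in Ctrl and 216 to 341 FPKM in LKO. All 6 stellate cell markers were higher, at 63.5 to 72.0 FPKM against 160 to 178 FPKM, and so were all 5 tested cholangiocyte markers, at 30.7 to 31.8 FPKM against 41.6 to 89.0 FPKM. The 2 tested monocyte markers were also higher (51.4 to 57.6 FPKM over the list of 6 against 141 to 203). So were 3 of 6 endothelial markers (81.4 to 84.0 FPKM against 92.2 to 149). The 2 tested neutrophil markers were higher as well (1.00 to 1.58 FPKM over the list of 5 against 7.63 to 9.74). Those Ctrl sums leave no room for both neutrophil markers at 1 FPKM in any Ctrl library. At least 1 of them thus met the filter on low values through LKO libraries, so its call is given as a description. Both tested adipocyte markers were higher too (12.9 to 14.4 FPKM over the list of 5 against 33.4 to 35.6). No lymphocyte marker was tested, and their list summed to at most 2.36 FPKM. The part of these cells in the changes of the members was not tested, and in bulk tissue fewer hepatocytes and less RNA per hepatocyte cannot be told apart.

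The genes around the members, taken from lists written from general knowledge, were counted in the same liver fit. Of 129 list genes beside the members, 118 were tested in liver, and 30 (25.4%) were higher and 17 (14.4%) lower in LKO, beside 38.3% and 5.49% of all genes. The counts of the single lists that follow are to be read against the same 2 shares, or against 14.8% and 18% after median-ratio scaling.

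Substrate entry had 5 higher, 1 lower and 15 not passed of 21 tested, a balance that turned to 2 higher and 6 lower after median-ratio scaling. The lactate and pyruvate transporter *Slc16a1* (MCT1) was at 12.7, 12.3 and 10.6 FPKM in Ctrl and 29.1, 34.4 and 38.9 in LKO, a log2 rise of 1.44 ± 0.14 (SE, adjusted p = 0.0009843, limma). Mitochondrial malate dehydrogenase *Mdh2* rose by 1.04 and the lactate dehydrogenase subunit *Ldhb* by 0.82, the latter from a low level of 1.56 FPKM on average. *Gpt2*, described above, and the mitochondrial pyruvate carrier subunit *Mpc1* (0.48) made up the rest of the higher genes, and the glycerol channel *Aqp9* (-0.43) was the lower one. *Mpc1* and *Aqp9* were named after their values were seen. For the reversible steps shared with glycolysis, 3 of 7 were higher and none lower, namely *Pgam1* (0.70), *Gpi1* (0.55) and *Pgk1* (0.53), and all 7 fold changes were positive. At an unadjusted p under 0.05 limma gave 5 higher and 0 lower. After median-ratio scaling 0 of 7 were called, with 1 higher at an unadjusted p under 0.05. The calls on *Ldhb* and *Gpi1* were lost without any 1 library other than LKO 1, that on *Pgk1* without Ctrl 2, Ctrl 3 or LKO 2, and that on *Pgam1* without Ctrl 2 or LKO 2, with adjusted p at most 0.1367 for *Ldhb* and 0.3832 for *Gpi1* over all settings in limma.

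Enzymes of the opposing glycolytic steps had 3 higher, 2 lower and 5 not passed of 10 tested, against 2 higher and 4 lower after median-ratio scaling. The 3 that rose, the platelet-type phosphofructokinase *Pfkp* (0.94), the muscle-type pyruvate kinase *Pkm* (0.91) and hexokinase *Hk1* (0.48), are forms that hepatocytes express little of. *Pfkp* lay near the filter on low values and could be tested in only 12 of 16 settings. Its direction may have been fixed by that filter, so its rise is given as a description. *Pfkfb3*, which makes the activator fructose 2,6-bisphosphate, had -1.16 ± 0.39 (SE, adjusted p = 0.04543, limma) with overlapping genotypes and a call lost without Ctrl 2, Ctrl 3, LKO 2 or LKO 3 (adjusted p at most 0.1344 in these fits), and *Pfkm* (-0.52) was the other lower one. *Hk1* and *Pfkm* were named after their values were seen. The part of the other cell types, whose markers rose in these libraries as given above, was not tested here either.

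Of 11 paralogues of the members, 6 were tested, with *Gpt2* and *Slc37a3* (0.59, called in 8 of 16 settings and lost without any 1 library other than LKO 1) higher and the urate transporter *Slc2a9* (-0.88) lower. The ubiquitous glucose-6-phosphatase *G6pc3* was at 3.89, 3.62 and 3.50 FPKM in Ctrl and 3.41, 6.13 and 10.7 in LKO, so that LKO 1 lay below Ctrl, and it did not pass (log2 0.62 ± 0.32, SE, adjusted p = 0.1411, limma). Over 16 settings *G6pc3* ranged from 0.21 to 0.97, and it was called in 2, without LKO 1 (adjusted p = 0.002742, limma) and with all 24 libraries in 1 fit. *Slc37a1* (0.29) did not pass. After median-ratio scaling 0 paralogues were higher and 1 was lower in limma, as at an unadjusted p under 0.05. *G6pc2*, *Fbp2*, *Slc37a2*, *Slc2a3* and *Slc2a4* were at most 1.08 FPKM in any liver library and were not tested.

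Transcriptional and hormonal regulators had 6 higher, 5 lower and 21 not passed of 32, a near-even split that became 4 higher and 11 lower after median-ratio scaling. *Trib3*, a stress-induced pseudokinase, was at 1.82, 0.961 and 1.74 FPKM in Ctrl and 10.7, 75.9 and 200 FPKM in LKO, a log2 rise of 4.51 ± 0.91 (SE, adjusted p = 0.009798, limma), with LKO 1 the lowest of its group as for *Pck2*. The insulin-repressed *Igfbp1* rose by 2.18, and the nuclear receptor *Nr0b2* (SHP) fell by 1.39, its value in LKO 1 (34.5 FPKM) lying near Ctrl (37.0 to 42.1). Its call was lost without any 1 library other than LKO 1 (adjusted p at most 0.1388 in these fits). Chosen after their values were seen, the coactivator *Ppargc1a* (PGC-1α) rose by 0.71, the glucagon receptor *Gcgr* fell by 0.47 and *Cebpa* fell by 0.89. *Foxo1* (0.18, adjusted p = 0.277), *Creb1* (0.33, adjusted p = 0.07099) and *Hnf4a* (-0.07, adjusted p = 0.7109) did not pass in limma.

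Of the 12 fasting-responsive genes 10 were higher and 0 lower in limma, where 1 was lower at an unadjusted p under 0.05, with a median log2 fold change of 1.56 beside 0.33 for all genes. The largest were the hormone *Fgf21* (4.28), the pyruvate dehydrogenase kinase *Pdk4* (4.20) and the fatty acid hydroxylase *Cyp4a14* (2.64). After median-ratio scaling 8 were higher and 2 lower. This list contains *Igfbp1* and *Ppargc1a*, which are also among the regulators. *Pck1* and *G6pc*, which fasting raises in liver, were not among the genes that rose here.

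Zonation was of interest because gluconeogenesis is mostly periportal. Periportal hepatocyte genes had 3 higher, 4 lower and 5 not passed of 12 tested, with *Aldh1b1* (2.25) and *Hsd17b13* (1.08) higher and *Pigr* (-0.94, a call lost without Ctrl 1, Ctrl 2 or LKO 2) lower. Of 12 pericentral genes, *Cyp2e1* was the 1 lower (-1.50) and 11 did not pass, against 6 lower after median-ratio scaling. For 2 genes of this list, chosen after their values were seen, LKO 1 stood apart, with *Glul* at 67.0 FPKM there and 296 to 327 in the other 5 livers, and *Cyp1a2* at 150 FPKM there and 333 to 647 in the others. For *Cyp2e1* it did not, at 801 FPKM beside 951 and 898 in LKO 2 and LKO 3. Clock genes had 1 higher, 3 lower and 7 not passed of 11, the lower ones being *Hlf* (-0.77), *Per2* (-0.76) and *Tef* (-0.61). *Per2* lay near the filter on low values and could be tested in only 12 of 16 settings. Its direction too may have been fixed by that filter, so its fall is given as a description. The hour of tissue collection and the time since feeding were not given in the sources used here.

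**Figure D3:**
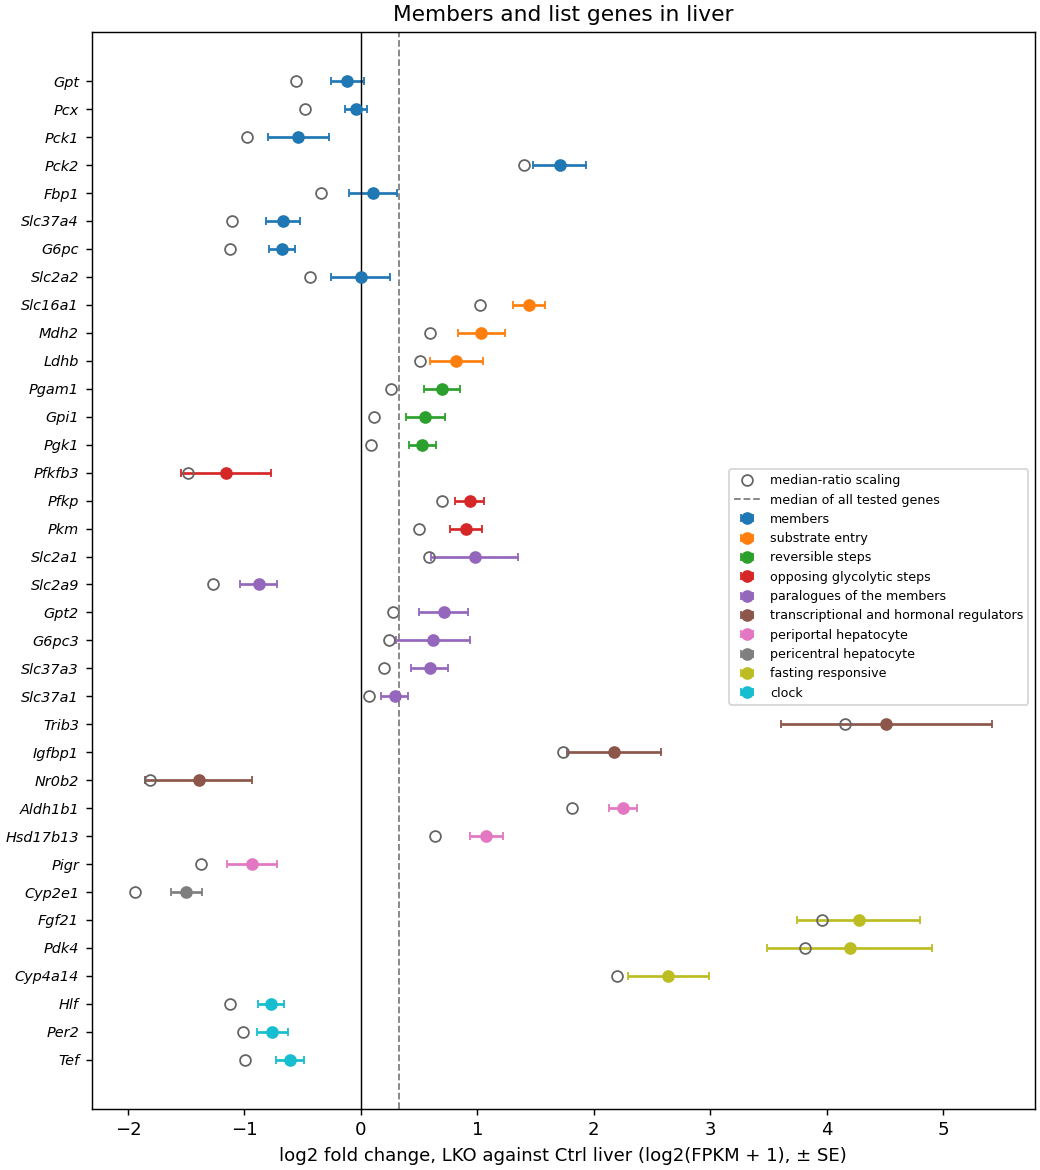
Log2 fold change (x axis, log2(FPKM + 1), LKO against Ctrl liver) of the members and list genes, filled points with SE bars as deposited and open circles after median-ratio scaling. The dashed line is the median of all tested genes at 0.33. *Pck2* at 1.71 stands apart from the other 7 members, which lie between -0.68 and 0.10.

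The level of each member across Ctrl tissues was compared next. Tissues differ in most genes, and of the 15320 genes tested 79.8% differed between liver and iWAT, 71.7% between liver and GM, 87.7% between liver and hypothalamus, 76.6% between iWAT and GM, 80.9% between iWAT and hypothalamus and 85.7% between GM and hypothalamus. Mean FPKM of *G6pc* was 245 ± 15.8 in liver (SD, n = 3) and at most 0.828 elsewhere, that of *Fbp1* 450 ± 31.9 in liver and at most 1.33 elsewhere, and that of *Slc2a2* 63.9 ± 11.9 in liver and at most 0.216 elsewhere. These 3 passed the filter on low values through liver alone, so that their being higher there was fixed by it, and the levels are given as a description. Of all genes 9.37% were higher in liver than in each other tissue in limma. The order of the remaining tissues was not read for them, because the highest of those means, in GM, rested on the libraries Ctrl 1 and Ctrl 3. There *Alb* was 168 and 125 FPKM against 13.7 in Ctrl 2, and *G6pc* was 1.24 and 1.18 FPKM against 0.0689. As parts in 10000 of the Ctrl liver mean, *Alb*, *Apoa1*, *G6pc* and *Fbp1* were 41.1, 47.2, 50.5 and 43.4 in GM Ctrl 1 and 30.6, 39.4, 47.9 and 40.0 in GM Ctrl 3, while in GM Ctrl 2 they were 2.81 to 5.02. *Slc2a2*, at no more than 0.455 FPKM in these libraries, was at 71.1 parts in GM Ctrl 1, 30.1 in GM Ctrl 3 and 0 in GM Ctrl 2. Liver-enriched transcripts were thus present together in GM Ctrl 1 and GM Ctrl 3, in like proportion for *Alb*, *Apoa1*, *G6pc* and *Fbp1*.

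*Pck1* was not restricted to liver. Its mean was 1209 ± 369 FPKM in iWAT, where it serves glyceroneogenesis, 881 ± 252 in liver, 10.4 ± 3.06 in GM and 0.207 ± 0.260 in hypothalamus (SD, n = 3), and only the first neighbours in that order did not differ past the test (log2 -0.45 ± 0.29, SE, adjusted p = 0.1854, limma). *Pck2* had another order, with 12.9 ± 1.47 FPKM in hypothalamus, 8.23 ± 0.817 in iWAT, 1.37 ± 0.259 in GM and 1.02 ± 0.112 in liver. Liver and GM did not differ past the test (log2 -0.23 ± 0.11, SE, adjusted p = 0.08365, limma). With 3.52 to 7.19 FPKM, LKO livers lay above every Ctrl GM library and below every Ctrl iWAT library (7.59 to 9.15). The share of *Pck2* in both PEPCK transcripts was 0.538% to 1.15% in Ctrl iWAT, 8.92% to 19.0% in Ctrl GM and 96.5% to 99.5% in Ctrl hypothalamus.

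*Pcx* was highest in iWAT (473 ± 102 FPKM), then liver (130 ± 8.43), GM (42.5 ± 3.58) and hypothalamus (28.4 ± 1.67), and all neighbours in this order differed (limma, adjusted p at most 0.00157). *Gpt* was 140 ± 16.2 in liver and 113 ± 31.7 in iWAT, which did not differ past the test (log2 0.34 ± 0.17, SE, adjusted p = 0.08741, limma), then 15.3 ± 0.875 in GM and 11.2 ± 1.59 in hypothalamus. *Slc37a4* was 67.8 ± 4.54 in GM and 60.1 ± 3.58 in liver (adjusted p = 0.0923 in limma), and 11.9 ± 1.25 in iWAT and 11.2 ± 0.724 in hypothalamus (adjusted p = 0.3737 in limma). Muscle thus held the transporter transcript at about the liver level with *G6pc* at 0.0689 to 1.24 FPKM.

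**Figure D4:**
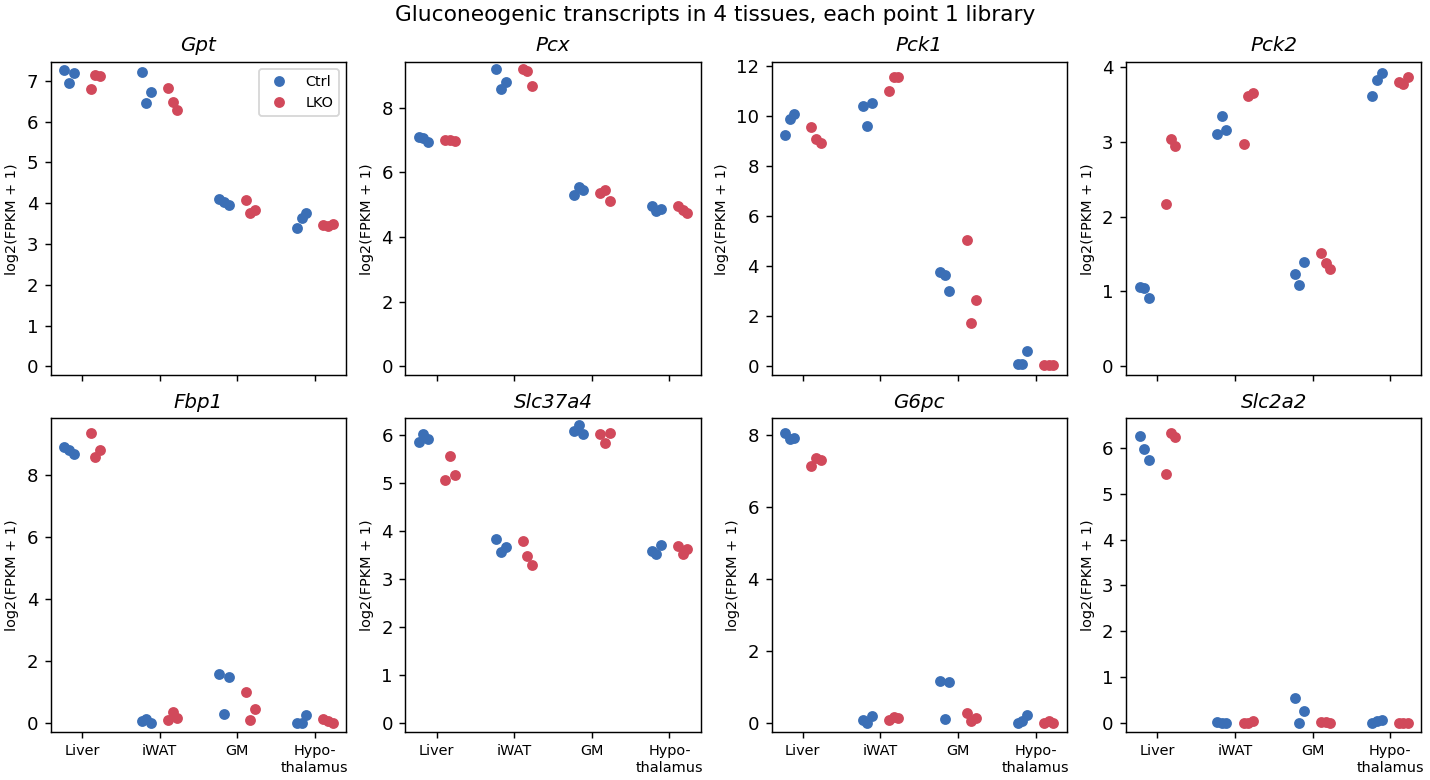
log2(FPKM + 1) (y axis) of each member in liver, iWAT, GM and hypothalamus, with 1 point per library and colour for genotype. *G6pc*, *Fbp1* and *Slc2a2* reach at most 1.95 FPKM outside liver. In iWAT, *Pcx* lies above liver in both genotypes, while *Gpt* overlaps liver in both. *Pck1* in iWAT overlaps liver in Ctrl and lies above it in LKO.

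Over all 24 libraries, the genes whose log2(FPKM + 1) was most like *G6pc* were *Slco1b2*, *Cyp3a25* and *Ugt2b36* (Pearson r 0.9993, 0.9992 and 0.9992), which describes a transcript seen in liver and close to absent elsewhere. For *Pck1* they were *Ces1d* (0.987), *Dtx3l* (0.986) and *Mut* (0.985), and for *Pck2* the first was *Kctd3* (0.982). Among the members, *Pck1* tracked *Gpt* (0.950) and *Pcx* (0.924), and *Pck2* ran against *Slc37a4* (-0.936). The 24 points share 4 tissues, so these coefficients describe tissue patterns.

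Outside the liver, where Crif1 was not targeted, none of the members passed the test between genotypes. In iWAT 5 members were tested and 0 called, as were 0% of 12288 genes in limma, with 1 member and 15% of all genes at an unadjusted p under 0.05. That member was *Pck1*, at 1375, 786 and 1467 FPKM in Ctrl iWAT and 2066, 3072 and 3093 in LKO iWAT. Every LKO library exceeded every Ctrl library, as for 9.76% of iWAT genes, and the log2 difference was 1.21 ± 0.29 (SE, adjusted p = 0.1517, limma), at percentile 99.8 of all iWAT fold changes. The log2 ratio of *Pck1* to *Pck2* was 7.32, 6.28 and 7.36 in Ctrl iWAT and 8.04, 7.97 and 7.94 in LKO iWAT, a difference of 1.00 (exact two-sided permutation p = 0.1, the smallest possible), opposite in sign to liver. The 5 adipocyte markers summed to 20900 to 24570 FPKM in Ctrl and 25730 to 27050 FPKM in LKO iWAT, also without overlap. The sums of 6 endothelial markers (81.2 to 128 FPKM in Ctrl and 135 to 165 in LKO), of 5 neutrophil markers (3.69 to 5.11 and 8.72 to 19.0) and of 7 hepatocyte markers (13.3 to 24.1 and 35.6 to 52.9) did not overlap either, and iWAT Ctrl 2, the lowest in *Pck1*, had the highest monocyte sum (1564 FPKM against 584 to 960 in the other iWAT libraries). The part of these cells in the *Pck1* values was not tested. *Pck2* (7.59 to 9.15 FPKM against 6.84 to 11.6), *Pcx*, *Slc37a4* and *Gpt* overlapped between genotypes.

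For GM, 5 members were tested and 0 called, beside 0% of 10877 genes, with 0 members and 6.83% of all genes at an unadjusted p under 0.05. *Pck1* was at 12.8, 11.5 and 6.99 FPKM in Ctrl and 32.4, 2.33 and 5.33 in LKO, the widest scatter of any tested member. GM LKO 1, the highest, also had the highest adipocyte marker sum of the GM libraries (685 FPKM against 234 to 526). It was also highest in monocyte markers (84.0 FPKM against 33.8 to 48.8), lymphocyte markers (26.5 against at most 6.47), Kupffer cell markers (6.00 against at most 2.56) and neutrophil markers (1.67 against at most 0.713). The part of these cells in *Pck1* was not tested. With all 6 libraries the log2 differences of the 5 were -0.32 for *Pck1*, 0.16 for *Pck2* and -0.13 each for *Pcx*, *Slc37a4* and *Gpt*. Liver transcripts were highest in GM Ctrl 1 and GM Ctrl 3, as given above, and next in GM LKO 1, where *Alb* was 65.6 FPKM. Leaving out these 3 libraries, a choice made after seeing the data, keeps 1 Ctrl library, so the differences then have no spread and no test, and *Pck1* was at -1.44, *Pck2* at 0.26, *Pcx* at -0.25, *Slc37a4* at -0.26 and *Gpt* at -0.24. Without GM LKO 2 alone, *Pck1* was at 0.39.

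Hypothalamus had 4 members tested and 0 called, beside 0.0217% of 13828 genes in limma, with 0 members and 3.72% of all genes at an unadjusted p under 0.05. *Pck2*, the main PEPCK transcript there, was at 11.2, 13.2 and 14.1 FPKM in Ctrl and 12.9, 12.7 and 13.6 in LKO. *Pck1* was under 0.51 FPKM in all 6 libraries, the highest being Ctrl 3, which also had the highest *Alb* of the hypothalamus libraries (10.98 FPKM).

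Whether the LKO effect differed between tissues was tested by a genotype-by-tissue term in 1 fit of the 24 libraries. These shared 1 estimate of the spread and were taken as independent, since the labels do not tie tissues to mice. The term passed for 33.5% of 15849 genes, and among the members for *Pck2* (adjusted p = 0.0002279) and *Slc37a4* (adjusted p = 0.02332) in limma. The term for *Slc37a4* was lost with TPM (adjusted p = 0.06785) and without liver Ctrl 2, Ctrl 3, LKO 1 or LKO 3 (adjusted p from 0.05518 to 0.07746). *Pck1*, with log2 differences of -0.54 in liver and 1.21 in iWAT, did not pass (adjusted p = 0.1994), and without GM LKO 1 it did (adjusted p = 0.001726). *G6pc* had an adjusted p of 0.04716 in the same limma fit, but at no more than 1.24 FPKM outside liver it had no room there for a like fall, so its term restates the liver change and is not read as a difference between tissues. It was 0.2104 with a pseudocount of 0.1, 0.1281 with TPM and 1.696e-05 (without GM Ctrl 2) to 0.08327 when each library was left out.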

How the data were processed

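Total RNA of 24 libraries was sequenced by the authors as 100 nt read pairs after TruSeq RNA v2 preparation. The submitters' processing notes list the build mm10 and FastQC 0.11.5, Trimmomatic 0.32, HISAT2 2.0.5, Bowtie2 2.2.6, STAR 2.5.2b and StringTie 1.3.3b, and their roles are not given in the sources used here. The deposited values are FPKM in a joined table, and per-library tables give FPKM, TPM and mean coverage. No read counts were used, so count models were not run. For the 8 members FPKM was the same in both tables within 0.001.

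FPKM was analysed as log2(FPKM + 1) with limma 3.58.1 (R 4.3.3, lmFit and eBayes with trend). A gene was tested where 3 or more libraries of the fit had 1 FPKM or more, and a Benjamini-Hochberg adjusted p under 0.05 was a call. The code was tested on simulated data. Percent called is over all genes tested. Single ratios were compared by exact two-sided permutation. Alternatives were a pseudocount of 0.1, other filters, TPM, median-ratio scaling, quantile normalization, ordinary variances, all 24 libraries in 1 fit, a replicate block and leaving out each library.

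The members and the gene lists were chosen with earlier results of these data known. Unless said otherwise, genes named in the text are the members, *Crif1*, all paralogues, up to 3 called genes with the largest fold change per list and the 3 most alike genes for *Pck1*, *Pck2* and *G6pc*, of which some are not reported here. Depth is given as aligned bases, inferred as the median over genes of mean coverage divided by FPKM. Promoter sequences came from RefSeq (GRCm38.p6).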

Additional observations from a re-analysis of the deposited data

Results flagged for a closer look

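The difference of the LKO effect between the 4 tissues passed the interaction test in limma for *Pck2* and *Slc37a4*, and for *G6pc* in a form that is not read as a tissue difference. For *Pck2* (adjusted p = 0.0002279) liver had a log2 fold change of 1.71, iWAT 0.21, GM 0.16 and hypothalamus 0.03, and LKO was higher in all 3 liver libraries. For *Slc37a4* (adjusted p = 0.02332) they were -0.67, -0.16, -0.13 and -0.0011 in the same order, and it did not pass with TPM (adjusted p = 0.06785) or without liver Ctrl 2, Ctrl 3, LKO 1 or LKO 3 (0.05518 to 0.07746). For *G6pc* (adjusted p = 0.04716) the value in liver was -0.68, and in the other tissues the gene was under the filter of 1 FPKM in 3 libraries of the tissue, at 0 to 1.24 FPKM. On log2(FPKM + 1) it had no room there for a like fall, and the adjusted p was 0.2104 with a pseudocount of 0.1 and 0.1281 with TPM.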

How the results depend on the processing

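The 3 liver calls became 5 with median-ratio scaling, and ranged from 2 to 4 when each library was left out. Of all genes 32.8% were called with that scaling, and from 13.5% without LKO 2 to 67.4% without LKO 1. *G6pc* was called in 16 of 16 settings (log2 -1.12 to -0.56). *Pck2* was called in the 15 settings that tested it (1.301 to 2.34). It was too low for the filter of a mean of at least 5 FPKM, where 2 members were called. *Slc37a4* was called in 13 of 16, the exceptions being ordinary variances (adjusted p = 0.055) and the fits without Ctrl 2 and Ctrl 3. Members that passed the tissue term, *G6pc* included, fell from 3 to 1, *Pck2*, with deposited TPM, and ranged from 1 to 4 when each library was left out, with 1 without liver Ctrl 2, Ctrl 3, LKO 1 or LKO 3. List genes called in liver (47) were 28 with ordinary variances and ranged from 25 without LKO 2 to 73 without LKO 1, with 27 without Ctrl 2 and 26 without Ctrl 3. The *Pck1* to *Pck2* ratio fell by 2.99 without a pseudocount, and its change was -2.71 to -1.997 when each library was left out. In iWAT, GM and hypothalamus 0 members were called in the settings run.

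Signs turned for genes that did not pass. In liver, *Fbp1* was -0.34 with median-ratio scaling and -0.12 to 0.27 when each library was left out, *Slc2a2* was 0.12 with TPM and -0.17 to 0.28 when each library was left out, *Pcx* was 0.082 and *Gpt* 0.0069 with TPM, and *Slc37a1* was -0.16 with quantile normalization. With each library left out, *Pck1* in GM was -1.28 to 0.39, and in hypothalamus *Pck2* was -0.060 to 0.092, *Pcx* -0.085 to 0.016 and *Slc37a4* -0.039 to 0.045. *Slc37a4* in hypothalamus was 0.021 with TPM, 0.0026 with median-ratio scaling and 0.0084 with quantile normalization. The cause was not tested.

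Replicate numbers are shared between genotypes. Deviations of same-numbered libraries correlated at 0.15, 0.03 and 0.04 in liver and at 0.30, -0.12 and 0.20 in iWAT. In GM they correlated at 0.35, 0.05 and 0.16, and in hypothalamus at -0.13, 0.14 and 0.09. The labels do not state a pairing, and the main fits did not use the numbers as one. With a replicate block 3 members were called in liver, 48 list genes in place of 47 and 3906 liver genes in place of 4794. The block turned *Slc2a1* into a call (adjusted p = 0.04054, limma), as did TPM, the fit of 24 libraries and those without LKO 1 or LKO 3. Over all liver genes calls were 4794, and ranged from 1401 without LKO 2 to 7541 when all 24 libraries shared 1 fit, with 7123 with TPM, 2319 with ordinary variances and 3302 with quantile normalization. A rule with a fold change of at least 1.5 was not run for the tissue difference, which has 3 contrasts. Depth was known only as inferred aligned bases, so no counting interval was given.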
